A study of Mus musculus with 41 samples.

Results

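The genes described here are 8 that are used to recognise osteocytes, namely Sost, Mepe, Phex, Dmp1, Fgf23, Pdpn, Irx5 and Cd44. They were taken by name from the deposited count table, in which each of them has 1 row, so that 8 of 43346 genes are described. RNA had been sequenced from tibial diaphyses of 41 female p16-INK-ATTAC mice on a C57BL/6 background, after the bones had been centrifuged to remove marrow elements. All 41 mice carried the INK-ATTAC transgene, in which a fragment of the p16Ink4a promoter drives a caspase that the drug AP20187 (AP) activates, so that AP can remove cells in which that promoter is active. The 12 young mice were labelled as 6 to 12 months old and as given vehicle. The 13 old + vehicle-treated and 16 old + AP-treated mice were injected repeatedly from 20 months of age for 4 months, with AP at 10 mg per kg in the second of these groups. The promoter of the transgene is not specific for bone or for osteocytes, the groups differ in age and not in genotype, and no sample came from mice without the transgene. The study used these mice to ask whether the level of a set of senescence genes follows age and the removal of p16-expressing cells in bone.

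Osteocytes are the cells that remain inside bone after osteoblasts have become embedded in the matrix they secrete. They keep contact with each other and with the bone surface through long dendrites, sense load, and release signals that set bone formation, bone resorption and the phosphate level of the blood. The 8 genes cover several of these roles. Sost encodes sclerostin, a secreted inhibitor of Wnt signalling that holds back bone formation. Dmp1 and Mepe encode matrix proteins of the SIBLING family that act on mineralization. Phex encodes a membrane endopeptidase whose loss causes X-linked hypophosphatemia, and Fgf23 encodes the hormone that lowers phosphate reabsorption in the kidney. Pdpn encodes podoplanin, a membrane protein of the growing dendrite that marks the young, embedding osteocyte and that lymphatic endothelium and fibroblasts also carry. Cd44 encodes a hyaluronan receptor found on osteocytes and on most blood cells, and Irx5 encodes a transcription factor of the Iroquois family.

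Total counts per mouse ranged from 37028959 to 75942717 with overlapping ranges in the 3 groups, which left between 19 and 1050 counts per mouse for Fgf23, the weakest of the 8 genes, and at least 165 for every other. The RNA came from centrifuged bone tissue and not from isolated osteocytes. Markers of osteoblasts, skeletal muscle, blood cells, vessels, fat, cartilage and tendon were all detected, and in each of the 15 marker lists no gene was at 0 in any group. Cdkn2a, the gene whose promoter the transgene uses, had a mean of 0.596 CPM (counts scaled to library size) in young, 2.78 in old + vehicle-treated and 1.75 in old + AP-treated mice, so that it was higher with age (log2 fold change 2.22, adjusted p = 0.00034 by edgeR) and not called between the old groups (log2 fold change -0.67, adjusted p = 0.266). The labels name no sequencing batch. Old mice are numbered from 1 to 29 and young mice from 30 to 41, so that a batch that followed age could not be told apart from age in any comparison with young mice. Of the old + AP-treated mice, 2 stood apart. Mice 18 and 19 were the lowest of their group for 5 of the 8 genes, and the comparisons of old + AP-treated mice are given with and without them where they move a value by much. They were set apart by their low levels of the members themselves, so that a fit without them is a description and no further test. The summed level of the 8 pan-leukocyte markers was 3996 CPM in mouse 18 and 4431 CPM in mouse 19, the 2 highest values of the group, whose median was 2403 CPM. The platelet and T cell sums were also the 2 highest of the group in these mice, and the skeletal muscle sums (15850 and 7507 CPM, median 46260 CPM) and endothelial sums (406.8 and 386.1 CPM, median 639 CPM) the 2 lowest, and their osteoblast sums were low (13360 and 11930 CPM, median 32840 CPM). The part of these lists in the low values was not tested.

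The bases before the start of the genes are shown for the 3 members that changed in both old groups, because 2 of these rose together while the other fell. Each line gives the 120 bases before the annotated start, 5′ to 3′ on the strand of the gene, from RefSeq on GRCm38.p6. Capitals mark matches to the 5 motifs named after the lines.
Sost, chr11:101967016-101967135, minus strand: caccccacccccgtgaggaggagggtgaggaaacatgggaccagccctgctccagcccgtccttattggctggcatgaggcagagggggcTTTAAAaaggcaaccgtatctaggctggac
Mepe, chr5:104325209-104325328, plus strand: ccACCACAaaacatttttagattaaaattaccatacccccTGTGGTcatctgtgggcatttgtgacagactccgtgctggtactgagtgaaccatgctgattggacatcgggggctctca
Phex, chrX:157415287-157415406, minus strand: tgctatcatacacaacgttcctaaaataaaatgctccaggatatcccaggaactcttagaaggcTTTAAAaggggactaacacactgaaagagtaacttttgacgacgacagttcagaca

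A search of the 250 bases before the start in the 7 members with an entry covered 4 motifs on both strands, namely the TATA box, spelled TATAAA, the core bound by RUNX factors, spelled TGTGGT, and the AP-1 and MEF2 motifs. The AP-1 motif was spelled TGANTCA, where N is any base. The RUNX letters were found in Mepe and Dmp1, 2 of 7 members, against 14% of all 32851 promoters of that length. The TATA letters were found in Mepe alone, against 12.4% of all promoters. This match was on the strand opposite to the gene, 173 to 168 bases before the start and outside the bases printed. No member held the AP-1 or MEF2 letters, which 6.75% and 3.2% of all promoters hold. The palindrome TTTAAA, chosen after these sequences had been seen, stood in Sost, Phex, Dmp1, Fgf23 and Pdpn, 5 of 7 members, against 12.1% of all promoters. It began 30 bases before the start in Sost, 31 in Dmp1, 27 in Fgf23, 49 in Pdpn and 56 in Phex. Such a match is a run of letters and not a measured binding site. Sost and Mepe, whose levels moved together, shared no match to any of the 5 motifs in this window.

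Per length, Dmp1 was the most abundant of the 8 in each group. Its mean was 197 RPKM (reads scaled to library size and gene length) in young mice, above 98.7% of the 19292 genes tested, 226 in old + vehicle-treated and 211 in old + AP-treated mice. In young mice it was followed by Mepe (108 RPKM), Sost (92.4), Phex (61.8), Cd44 (32.2), Pdpn (11.7), Irx5 (5.15) and Fgf23 (1.98). This order held within most young mice. Dmp1 lay above Mepe in 12 of 12 mice, Sost above Phex in 11 of 12 and Mepe above Sost in only 9 of 12, so that Mepe and Sost were neighbours whose ranges overlapped widely.

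In the old groups Phex no longer lay clearly above Cd44. The mean of Phex was 34.95 RPKM in old + vehicle-treated mice, next to 35.5 for Cd44, with Cd44 above Phex in 7 of 13 mice. In old + AP-treated mice the means were 37.1 and 39.1 RPKM, while the medians were 40.5 and 38.7 RPKM, with Phex above in 10 of 16 mice. Without mice 18 and 19 the means were 40.9 and 38.5 RPKM, again with Phex above Cd44. These neighbours, and Sost and Mepe in old + AP-treated mice (192 and 184 RPKM, Sost above in 8 of 16), did not differ beyond their spread. Fgf23 stayed last, above 33.2% of the tested genes in young and 45.8% in old + vehicle-treated mice. Dmp1, Mepe, Sost, Phex and Cd44, the last of which most blood cells also carry, thus lay above at least 90.9% of the tested genes in each group. Pdpn lay above 62.2% to 73.4% and Irx5 above 52.9% to 57.6% of them.

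**Figure D1:**
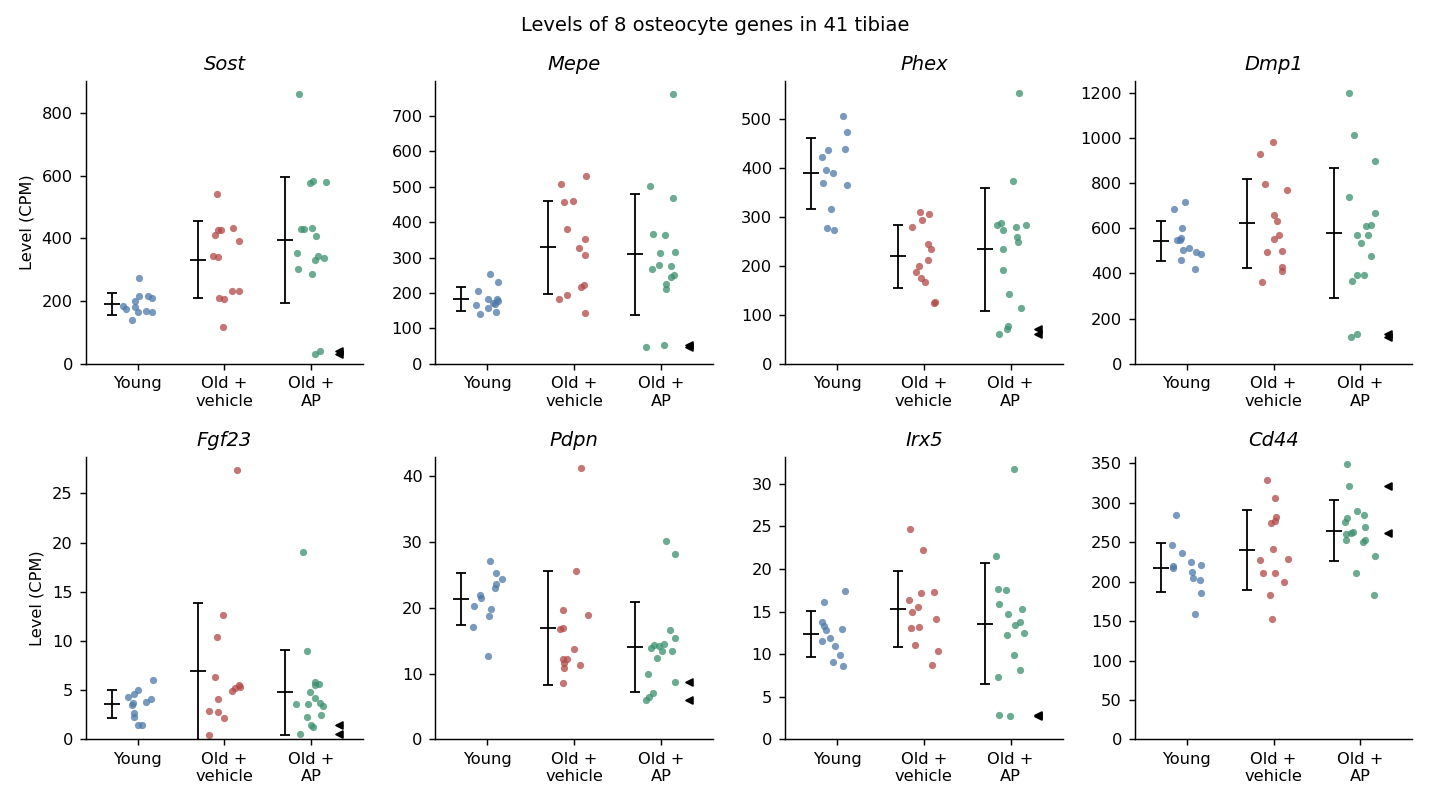
Level of each of the 8 genes in CPM (linear axes from 0) in the 41 mice, with 1 point per mouse, the group mean and SD to the left of the points, and black arrowheads at old + AP-treated mice 18 and 19. Sost and Mepe lie higher and Phex lower in old mice, and mice 18 and 19 are the lowest of their group for Sost, Mepe, Phex, Dmp1 and Irx5; the SD bar of Fgf23 in old + vehicle-treated mice is cut at 0.

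With age, 3 of the 8 genes changed between young and old + vehicle-treated mice. Sost and Mepe rose by about the same amount, Phex fell, and Dmp1, Fgf23, Pdpn, Irx5 and Cd44 did not pass the test. A gene was called when edgeR's quasi-likelihood test gave a Benjamini-Hochberg adjusted p under 0.05 over all 19292 genes together with a log2 fold change of more than 0.5 in size. By this rule 9.06% of all tested genes were called, 4.3% as higher and 4.75% as lower, against 3 of 8 members (2 higher, 1 lower). Over the 8 members the log2 fold change had a median of 0.25, next to 0.01 over all tested genes. In RNA from bone tissue, fewer cells of a type and less RNA per cell cannot be told apart.

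Sost ranged from 138 to 273 CPM in young mice (median 182.5) and from 116 to 542.5 CPM in old + vehicle-treated mice (median 345). All but 1 of the 13 old mice lay above the young median and 8 lay above the highest young mouse, while mouse 7 lay below the lowest. The log2 fold change was 0.80 ± 0.29 (SE), or 1.74-fold (edgeR, adjusted p = 0.0445). This call is the weakest of the 3. It was lost with limma-voom (adjusted p = 0.094), without a filter on low counts (0.0663) and with a skeletal muscle marker score as covariate (0.0698). It was also lost in 19 of the 25 fits that left out 1 mouse, namely old + vehicle-treated mice 2, 6, 8, 13, 14, 15, 20 and 22 and every young mouse but mouse 41, with log2 fold changes between 0.72 and 0.87 and adjusted p between 0.0242 and 0.0771 over all 25 fits. The call was kept with DESeq2 (adjusted p = 0.0259), with a pan-leukocyte score as covariate (0.0117) and in a fit of the young and old + vehicle-treated mice alone (0.00215), in which the SE was 0.177 in place of 0.287.

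Mepe ranged from 140.1 to 253 CPM in young mice (median 176) and from 144.5 to 532 CPM in old + vehicle-treated mice (median 326). All but 1 of the old mice lay above the young median, 8 of 13 lay above the highest young mouse and none lay below the lowest. The log2 fold change was 0.85 ± 0.27 (SE), or 1.81-fold (edgeR, adjusted p = 0.0208). The call was kept in each of the 25 fits that left out 1 mouse, with adjusted p between 0.0123 and 0.0385. Of the 15 marker lists the endothelial score had the highest r with Sost and Mepe over the 41 mice, with group means subtracted (0.675 and 0.651, without a test). The summed median of its 8 markers was 603.5 CPM in young and 714 CPM in old + vehicle-treated mice, and none of them was called. The part of these markers in the levels of Sost and Mepe was not tested. Mouse 7, which had the lowest Sost and the lowest Mepe of the old + vehicle-treated mice, also had the highest summed levels of osteoblast (80870 CPM), pan-leukocyte (3116 CPM), osteoclast (12610 CPM), macrophage (1601 CPM), chondrocyte (1793 CPM) and lymphatic markers (112.5 CPM) in that group and the lowest of skeletal muscle markers (15720 CPM, median 68650 CPM), and their part in its low values was not tested.

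Phex ranged from 273.5 to 507 CPM in young mice (median 392) and from 124 to 310.3 CPM in old + vehicle-treated mice (median 211). Each of the 13 old mice was under the median of the young, and 9 of them were under the lowest young mouse. The log2 fold change was -0.82 ± 0.24 (SE), or 0.57 times the young level (edgeR, adjusted p = 0.0119). The call was kept in each of the 25 fits without 1 mouse (adjusted p between 0.00955 and 0.0229).

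Phex is also expressed by osteoblasts, and osteoblast markers moved with it. Of the 12 osteoblast markers 6 fell between young and old + vehicle-treated mice and none rose, with a median log2 fold change of -0.67. These 6 were Bglap, Bglap2 and Bglap3 (osteocalcin and its near-identical copies, whose reads could be split between them), Tnn, Col5a2 and Ibsp. The summed level of the list lay between 37000 and 92510 CPM in young, 16270 and 80870 CPM in old + vehicle-treated, and 7088 and 71520 CPM in old + AP-treated mice, with no marker at 0. In a fit with the mean standardized level of these markers as covariate, a choice made once the data were known, the log2 fold change of Phex was -0.16 (adjusted p = 0.519) and Phex was not called. In the same fit Sost (1.19, adjusted p = 0.00381) and Mepe (1.33, adjusted p = 0.000312) were called with larger values, and Dmp1 (0.68, adjusted p = 0.0124) and Irx5 (0.85, adjusted p = 0.000918) were called as higher. The markers in the score were themselves lower with age, so that this fit cannot separate them from age, for the call lost or for those gained. The part of the osteoblast markers in the level of Phex was not tested.

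Dmp1, which with Mepe lies in the SIBLING gene cluster on chromosome 5, ranged from 420.4 to 716 CPM in young mice (median 530.1) and from 363 to 983 CPM in old + vehicle-treated mice (median 570.2). The groups overlapped, with 4 old mice above and 2 below the young range. The log2 fold change was 0.19, with an interval of 2 SE from -0.27 to 0.65 (edgeR, adjusted p = 0.608).

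Fgf23 ranged from 1.43 to 6.04 CPM in young mice (median 3.78) and from 0.446 to 27.35 CPM in old + vehicle-treated mice (median 5.24). Its fitted log2 fold change, 0.95 ± 0.43 (SE), was the largest of the 8 in size and did not pass the test (edgeR, adjusted p = 0.114). The value depended on mouse 15, which at 27.35 CPM was far above the rest. Without it the value was 0.54 (adjusted p = 0.361). The lowest old mouse was mouse 16, with 19 counts of Fgf23.

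Pdpn ranged from 12.6 to 27.1 CPM in young mice (median 21.7) and from 8.60 to 41.2 CPM in old + vehicle-treated mice (median 13.7). Of the 13 old mice 11 lay below the young median, while mouse 16 lay far above the highest young mouse. With mouse 16 the log2 value was -0.33 (edgeR, adjusted p = 0.312), and without it -0.52 (adjusted p = 0.0743), so that neither passed the test. Mouse 16 also had the highest summed level of the 8 fibroblast and tendon markers in its group, 3202 CPM against a median of 959 CPM, and the lowest pan-leukocyte sum, 1119 CPM. Their part in its Pdpn level was not tested. The fibroblast and tendon list itself moved with age, with 4 of 8 markers lower (Postn, Mkx, Col3a1 and Pdgfra) and 1 higher (Thbs4).

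Irx5 ranged from 8.565 to 17.4 CPM in young mice (median 12.4) and from 8.785 to 24.7 CPM in old + vehicle-treated mice (median 14.9). The groups overlapped, and the log2 fold change of 0.30 did not pass the test (edgeR, adjusted p = 0.393). Cd44 was the steadiest of the 8, at 159 to 284 CPM in young mice (median 219) and 152 to 329 CPM in old + vehicle-treated mice (median 229). Its log2 fold change was 0.14, with an interval from -0.06 to 0.34 (edgeR, adjusted p = 0.345).

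No member was called between the 2 old groups, where AP was compared with vehicle. By the same rule 14 of 19292 genes, or 0.0726%, were called in this comparison, 0.0259% as higher and 0.0467% as lower. edgeR, DESeq2 and limma-voom each called 0 of the 8 members, and 0 of 8 had an unadjusted p under 0.05 with edgeR. The adjusted p ranged from 0.351 for Cd44 to 0.84 for Mepe. The intervals of 2 SE on the log2 fold change ran from -0.28 to 0.79 for Sost, from -0.59 to 0.40 for Mepe, from -0.36 to 0.53 for Phex and from -1.31 to 0.25 for Fgf23. A return to the young level would have been -0.80 for Sost, -0.85 for Mepe and 0.82 for Phex, each outside its interval. These return values are themselves estimates, with SE of 0.29, 0.27 and 0.24, from the same vehicle mice. The intervals do not take that into account. For Fgf23 a return would have been -0.95, inside its interval, so that at this spread a return could not be told from no change. Both values rested on single mice, since the log2 fold change of Fgf23 between the old groups, -0.53, was -0.13 when mouse 15 of the vehicle group was left out and -0.85 when mouse 24 of the AP group was, and the -0.95 itself depends on mouse 15.

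In single mice, Sost ranged from 32.2 to 861 CPM in old + AP-treated mice (median 381), a range that holds that of the vehicle group. Mepe ranged from 46.15 to 763 CPM (median 278), with 11 of 16 mice below the median of the vehicle group. Phex ranged from 60.5 to 553 CPM (median 254.5). For all of these the lowest mice were 18 and 19 and the highest was mouse 12. Without mice 18 and 19 the log2 fold change of Sost between the old groups was 0.43 in place of 0.25, and it did not pass the test (edgeR, adjusted p = 0.28). Its interval, from 0.08 to 0.78, no longer held 0, in a fit that leaves out the lowest mice for this gene. The log2 fold change of Phex was 0.22 in place of 0.09 (adjusted p = 0.63). Mepe was at 0.08 and Dmp1 at 0.05, in place of -0.09 and -0.10, and no member was called. Without mouse 12, the highest, the values moved the other way, to 0.13 for Sost, -0.24 for Mepe and -0.20 for Dmp1, and limma-voom gave 0.079 for Sost.

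Against young mice, 4 of 8 members were called in old + AP-treated mice (3 of 8 without mice 18 and 19), where 8.54% of all genes were called, 3.71% as higher and 4.83% as lower. This comparison shares its young mice with that of old + vehicle-treated mice and its AP-treated mice with that of the old groups, so that its values stand beside the others and are no repeat of them. Sost was higher (log2 fold change 1.05 ± 0.28, adjusted p = 0.00767), with 14 of 16 mice above the highest young mouse and mice 18 and 19 below the lowest. Without these 2 mice, which were set apart by their low levels of these same genes, the value was 1.22 (adjusted p = 1.69e-05). By limma-voom with all mice it was 0.81 (adjusted p = 0.0558) and not called.

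Mepe was higher in old + AP-treated than in young mice (log2 fold change 0.76 ± 0.26, adjusted p = 0.0352), with 10 of 16 mice above the highest young mouse. The call was lost with limma-voom (0.56, adjusted p = 0.13), without a filter (adjusted p = 0.0533) and without any of old + AP-treated mice 4, 10 and 12 or young mice 32, 36, 37, 39 and 40 (log2 fold changes from 0.61 and adjusted p up to 0.068). Without mice 18 and 19 it was 0.92 (adjusted p = 0.00147), a fit that leaves out the lowest mice for this gene.

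Phex was lower (log2 fold change -0.74 ± 0.22, adjusted p = 0.0194), with 15 of 16 mice below the young median and 10 below the lowest young mouse. Mouse 12 lay above all young mice. Without mice 18 and 19 the value was -0.60 (adjusted p = 0.0362). With the osteoblast score as covariate it was 0.05 (adjusted p = 0.888). In this comparison 9 of the 12 osteoblast markers were lower and none was higher, with a median log2 fold change of -0.996. Sost (1.53), Mepe (1.32), Dmp1 (0.69, adjusted p = 0.0264) and Irx5 (0.82, adjusted p = 0.00445) were called as higher in the fit with the osteoblast score. That fit cannot separate the score from age.

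Pdpn ranged from 5.97 to 30.1 CPM in old + AP-treated mice (median 13.6) and was called as lower than in young mice (log2 fold change -0.60 ± 0.21, adjusted p = 0.0417). This call was close to the threshold. It was lost without mice 18 and 19 (-0.51, adjusted p = 0.0961), with the pan-leukocyte score (-0.42, adjusted p = 0.0781), without a filter (adjusted p = 0.0569) and with the osteoblast score (0.07, adjusted p = 0.88), and in 18 of 28 fits without 1 mouse, with adjusted p up to 0.0687. Those fits left out old + AP-treated mice 3, 4, 5, 17, 18, 19, 24, 25, 26 and 28 and young mice 30, 31, 32, 33, 34, 36, 38 and 40. The fibroblast and tendon markers moved with Pdpn, with 4 of 8 lower and none higher in this comparison, and a summed level of 1512 to 3994 CPM in young (median 3042 CPM) against 428.7 to 2990 CPM in these mice (median 834 CPM), with no marker at 0. Over the 41 mice, with group means subtracted, r between Pdpn and the score of these markers was 0.79, the highest of the 15 lists, a value without a test. The part of these markers in the level of Pdpn was not tested.

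Cd44 ranged from 183 to 349 CPM in old + AP-treated mice (median 262), with 14 of 16 above the young median. Its adjusted p was 0.0357, but its log2 fold change of 0.28 was under the threshold, so that it was not called. Without mice 18 and 19 the value was 0.25 and its p no longer passed (adjusted p = 0.0959). Cd44 is carried by most blood cells. With the pan-leukocyte score as covariate its log2 fold change was 0.18 (adjusted p = 0.0976), with the skeletal muscle score 0.25 (adjusted p = 0.0064) and with the osteoblast score 0.42 (adjusted p = 0.014), each under the fold threshold. Over the 41 mice, with group means subtracted, Cd44 had r = -0.696 with the skeletal muscle score and 0.636 with the pan-leukocyte score, values that share the same libraries and carry no test. Of the pan-leukocyte markers, 1 of 8 was called as higher in this comparison. Dmp1 (0.09, adjusted p = 0.806), Fgf23 (0.42, adjusted p = 0.506) and Irx5 (0.13, adjusted p = 0.723) did not pass the test, nor did they without mice 18 and 19 (0.24, 0.56 and 0.28, adjusted p = 0.362, 0.358 and 0.292). The value of Fgf23 was 0.095 without mouse 24 (adjusted p = 0.895). The number of members called was 2 with limma-voom (Phex and Pdpn), 2 without a filter (Sost and Phex), and 2 without old + AP-treated mouse 4 or young mouse 32, 36 or 40.

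**Figure D2:**
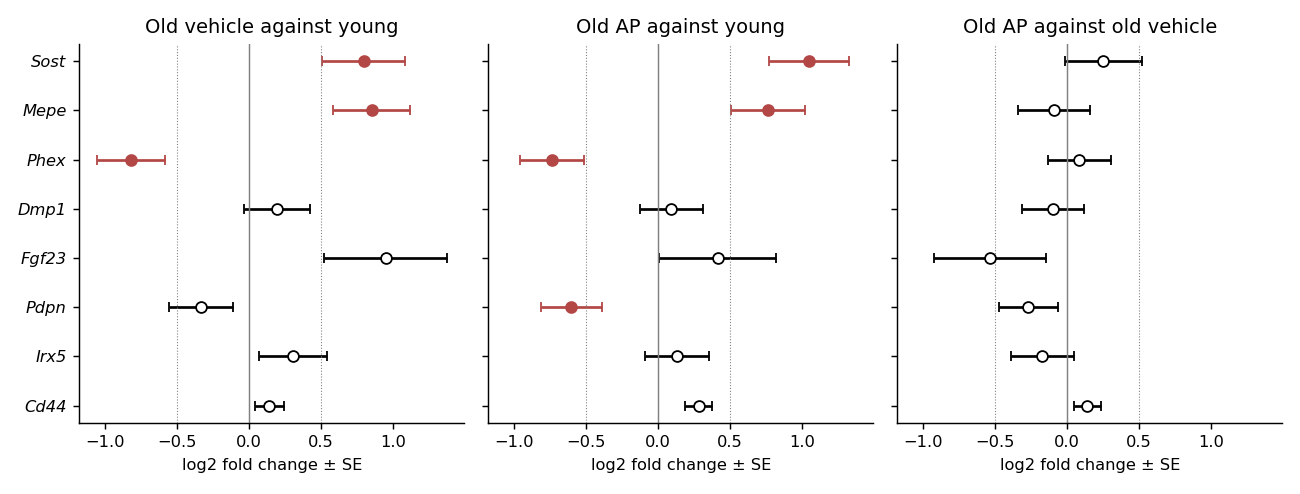
log2 fold change of each member with its SE in the 3 comparisons, from 1 edgeR fit of 41 mice, with the thresholds of 0.5 and -0.5 dotted. Filled red points were called and open points were not; Sost and Mepe are higher and Phex lower in both comparisons with young mice, Pdpn is lower in the second, and no point is filled in the comparison of the 2 old groups.

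A ratio of 2 genes in the same mouse does not depend on library size or scaling. The ratio of Mepe to Phex, both in RPKM, had a median of 1.79 in young mice (1.24 to 2.36), 5.64 in old + vehicle-treated mice (2.22 to 9.72) and 4.75 in old + AP-treated mice (2.41 to 10.4). Every one of the 16 old + AP-treated mice, mice 18 and 19 included, and 12 of 13 old + vehicle-treated mice lay above the highest young mouse. The exception was mouse 7.

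The ratio of Sost to Phex had a median of 1.57 in young mice (0.889 to 2.01), 4.93 in old + vehicle-treated mice (1.45 to 7.50) and 4.90 in old + AP-treated mice (1.36 to 13.6). Mouse 7 among the first and mouse 19 among the second lay within the young range, and the other old mice lay above it. The ratio of Phex to Dmp1 went the other way, with a median of 0.317 in young mice (0.235 to 0.435), 0.159 in old + vehicle-treated mice (0.111 to 0.207) and 0.181 in old + AP-treated mice (0.0911 to 0.257). All 13 old + vehicle-treated mice and 14 of 16 old + AP-treated mice lay below the lowest young mouse. The 2 old groups overlapped in all 3 ratios.

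Between Sost and Mepe there was no such shift with age, with a median ratio of 0.901 in young, 0.774 in old + vehicle-treated and 1.02 in old + AP-treated mice. These ratios were picked with the results above known, 3 of the 4 genes in them (Sost, Mepe and Phex) having been called and Dmp1 not, and no test was made of them.

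**Figure D3:**
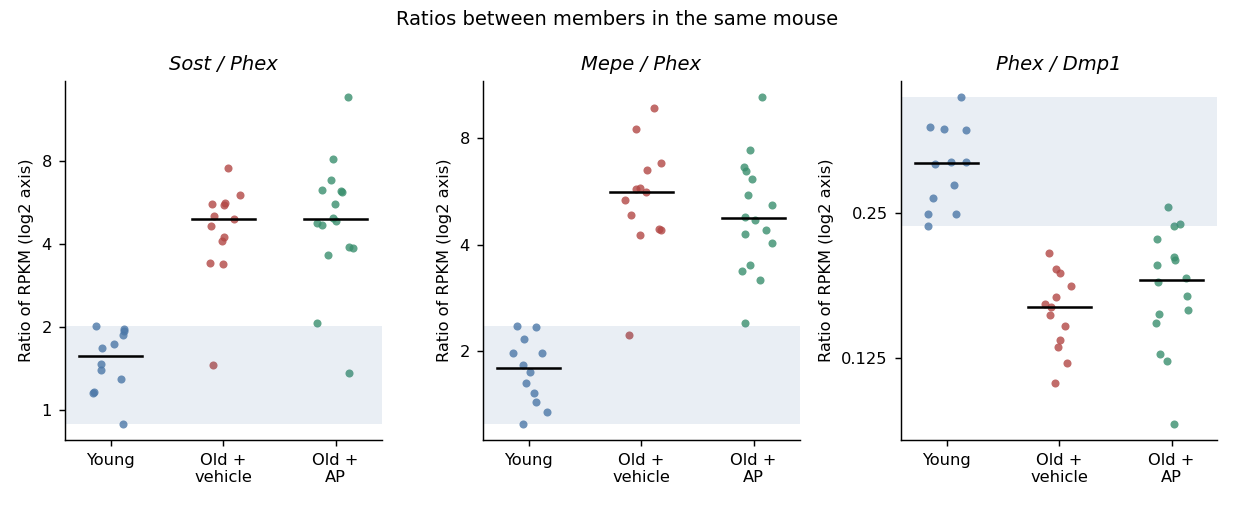
Ratios of Sost to Phex, Mepe to Phex and Phex to Dmp1 in RPKM, on log2 axes, with 1 point per mouse, the group median as a bar and the range of the young mice shaded. Of the old mice, 1 of 13 given vehicle and none of 16 given AP fall in the young range of Mepe to Phex.

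The members also varied more from mouse to mouse in the old groups. The coefficient of variation of Sost was 18.2% in young, 36.9% in old + vehicle-treated and 51% in old + AP-treated mice, and 34.9% in the latter without mice 18 and 19. That of Phex was 18.85%, 29.2% and 54.2%, and 45.2% without these 2 mice. Cd44 did not follow this, at 14.2%, 21.2% and 14.7%, and Fgf23 varied most, at 39.2%, 100.4% and 90.8%. The old values of Fgf23 rested in large part on single mice. These were mouse 15 of the vehicle group at 27.35 CPM (next highest 12.6 CPM) and mouse 24 of the AP group (next highest 8.98 CPM). Between the highest and the lowest mouse of a group, Sost differed 1.97-fold in young, 4.67-fold in old + vehicle-treated and 26.8-fold in old + AP-treated mice. The last of these rested on mice 18 and 19, without which Sost differed 2.99-fold. The value of the vehicle group rested in turn on mouse 7 at 116 CPM, the next lowest being mouse 21 at 205 CPM. Mouse 12 was the highest of the old + AP-treated mice for 7 of the 8 genes, all but Fgf23, for which mouse 24 was highest at 19.03 CPM.

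Correlations between the levels of the members from mouse to mouse passed the test mainly in old + AP-treated mice. The correlation was computed for 28 pairs of members in each of 3 groups, 84 relations in all, on log2 CPM, with two-sided permutation tests and Benjamini-Hochberg adjustment over the 84. Of these, 23 passed, all positive: 1 of 28 in young, 6 of 28 in old + vehicle-treated and 16 of 28 in old + AP-treated mice. The median r was 0.215, 0.493 and 0.728. The group sizes differ, and the difference in r between groups was not tested.

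For Sost and Mepe, r was 0.326 and rho 0.287 in young mice (permutation p = 0.301 and 0.365, adjusted p = 0.468 and 0.503). In old + vehicle-treated mice r was 0.903 and rho 0.841 (permutation p = 6e-05 and 0.00058, adjusted p = 0.00042 and 0.00304), and r was 0.866 without the 2 mice farthest from the median of Sost.

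In old + AP-treated mice the counts above include mice 18 and 19, which lie apart from the other 14 for Sost and Mepe. Among these 14 mice, an alternative chosen with the data known, 17 of 28 pairs passed with adjustment over the 28, and the median r was 0.757. There r was 0.934 and rho 0.837 for Sost and Mepe (permutation p = 2e-05 and 0.00039, adjusted p = 9.33e-05 and 0.00156). For Phex and Dmp1 r was 0.847 and rho 0.736 (permutation p = 0.0001 and 0.00378, adjusted p = 0.00028 and 0.00962). All 15 pairs among Sost, Mepe, Phex, Dmp1, Pdpn and Irx5 passed in both sets of mice. Sost and Phex, which were called in opposite directions with age, thus went up and down together within the group. Many other genes did so too. Over the 41 mice, with group means subtracted, Phex ranked 181st by its r with Sost (0.724) among 15541 genes. Phex had r = 0.838 with the osteoblast score, and Sost and Phex had r = 0.675 and 0.625 with the endothelial score, values without a test. The part of tissue shares in these correlations was not tested.

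The pair that passed in young mice was Mepe and Dmp1, the SIBLING neighbours. Its r was 0.751 and its rho 0.517 (permutation p = 0.00545 and 0.0906, adjusted p = 0.0229 and 0.237), and r was 0.318 without the 2 mice farthest from the median of Mepe, so that the relation rested on those mice. Among the 14 old + AP-treated mice Fgf23 and Cd44 followed the others less closely. The r of Fgf23 lay between -0.484 (with Phex) and 0.00653 (with Sost), and none of its pairs passed. The r of Cd44 with Sost was 0.538 and its rho 0.499 (permutation p = 0.0484 and 0.07, adjusted p = 0.0714 and 0.103). Of the 7 pairs of Cd44 those with Phex (r = 0.648, adjusted p = 0.0253) and Dmp1 (r = 0.59, adjusted p = 0.0426) passed.

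**Figure D4:**
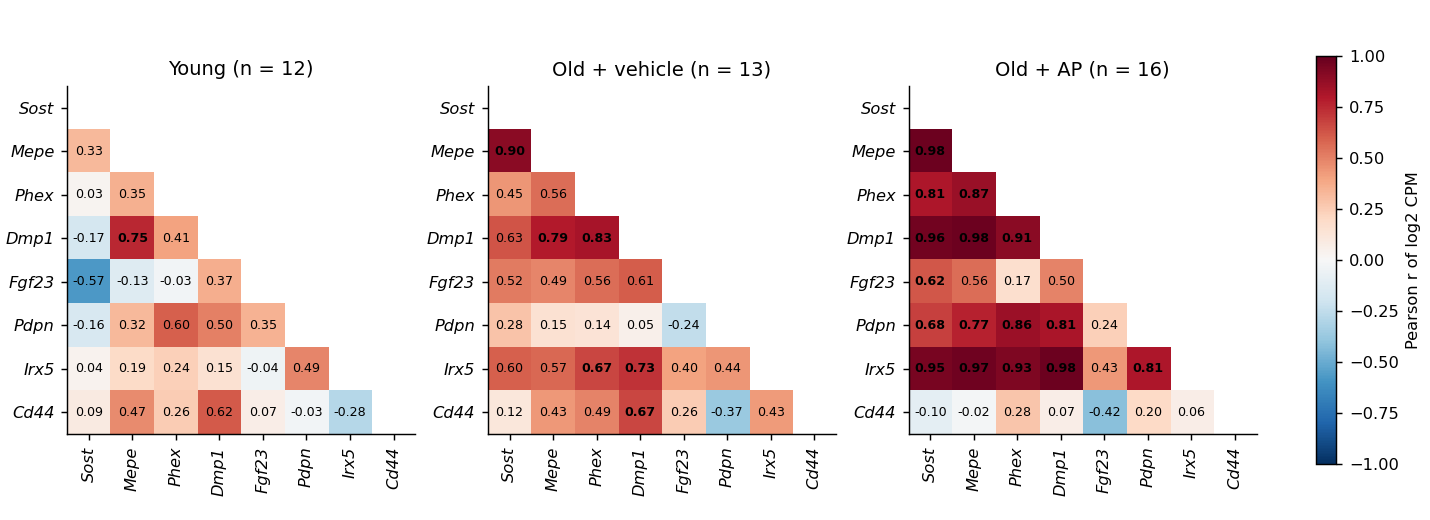
Pearson r of log2 CPM between each pair of members within each of the 3 groups, with values in bold where the adjusted permutation p was under 0.05 and mice 18 and 19 included. In old + AP-treated mice all pairs among Sost, Mepe, Phex, Dmp1, Pdpn and Irx5 are in bold, against 1 pair in young mice; Cd44 and most pairs with Fgf23 are not.

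Around the 8 members, 67 genes of the same pathways were listed, of which 63 were tested. Between young and old + vehicle-treated mice 8 of 63 were called (12.7%, 2 higher and 6 lower), where 9.06% of all genes were, with a median log2 fold change of 0.03 against 0.01 for all genes. Between old + AP-treated and young mice 11 of 63 were called (17.5%, 2 higher and 9 lower), where 8.54% of all genes were. A few more passed the p and not the fold threshold, namely 6 in the first comparison (Furin, Mef2d, Panx1 and Hyou1 higher, Cd9 and Lrp5 lower) and 3 in the second (Hyou1 and Hdac4 higher, Cd9 lower). Between the 2 old groups edgeR, DESeq2 and limma-voom each called 0 of 63, with 9 genes at an unadjusted p under 0.05 by edgeR. In old + AP-treated against young mice DESeq2 called 12 listed genes (3 higher, 9 lower) and limma-voom 9 (0 higher, 9 lower). In old + vehicle-treated against young mice they called 8 (2 higher, 6 lower) and 7 (1 higher, 6 lower).

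Of the 15 tested genes that act on Fgf23, Phex or phosphate, 1 was lower in old + vehicle-treated and 3 in old + AP-treated mice than in young mice, and none was higher. The gene lower in both was Pcsk5, which encodes a proprotein convertase. It had a mean of 44.5 CPM in young, 24.4 in old + vehicle-treated and 21.9 in old + AP-treated mice (log2 fold changes of -0.87 and -1.02, adjusted p = 0.000736 and 6.57e-05), and 13 of 13 and 16 of 16 old mice lay below the young median. Alpl, which encodes the alkaline phosphatase of bone and is also among the osteoblast markers, and Pth1r, the receptor of parathyroid hormone, were called as lower in old + AP-treated mice (-0.63 and -0.62, adjusted p = 0.0468 and 0.0444) and had values of -0.40 and -0.26 in old + vehicle-treated mice (adjusted p = 0.25 and 0.466). Fam20c, the kinase of secreted phosphoproteins, and Galnt3, which protects FGF23 from cleavage, were not called (log2 fold changes of 0.30 and -0.16 with age, adjusted p = 0.265 and 0.435). Kl, which encodes the FGF23 co-receptor Klotho, did not pass the filter on low counts. Of the other SIBLING genes, Ibsp fell (-0.65, adjusted p = 0.0398 in old + vehicle-treated and -0.72, adjusted p = 0.0177 in old + AP-treated mice), Spp1 did not pass (0.08, adjusted p = 0.846), and Dspp was filtered out. Within this family Mepe and Ibsp were thus called in opposite directions with age.

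Among the 13 genes around sclerostin, the receptors did not move as Sost did. Lrp4, which anchors sclerostin at the cell surface, and Lrp5, a Wnt co-receptor that sclerostin binds, were lower in old + AP-treated than in young mice (log2 fold changes of -0.57 and -0.61, adjusted p = 0.0305 and 0.00174). In old + vehicle-treated mice they were not called, at -0.40 each, with adjusted p = 0.153 and 0.0471, the second under the fold threshold. Lrp4, like Pth1r above, was lowest in old + vehicle-treated mouse 21 and highest in mouse 7 and in old + AP-treated mouse 27, as was the summed level of the osteoblast markers, whose part in these values was not tested. Lrp6 was not called in either (-0.06 and -0.07). Hdac4, a repressor of MEF2 factors, was higher in old + vehicle-treated mice, at 54.6 against 34.7 CPM (0.65, adjusted p = 8.08e-05), with 12 of 13 mice above the highest young mouse. In old + AP-treated mice it was 0.43 (adjusted p = 0.0049), under the threshold. Sostdc1, the paralog of Sost, was higher in old + AP-treated mice from a level under 1 CPM (0.97, adjusted p = 0.0379). This call was lost with limma-voom. Dkk1, the other secreted Wnt inhibitor of osteocytes, was not called with age (0.11, adjusted p = 0.811).

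Of the 13 partners of podoplanin and CD44, Clec1b, the platelet receptor of podoplanin, was lower in old + vehicle-treated mice (-1.18, adjusted p = 0.00121). It is one of the 7 platelet markers, of which 6 were lower in that comparison, and their part in its level was not tested. The hyaluronan synthases Has2 (1.43, adjusted p = 0.0384, in old + vehicle-treated mice) and Has3 (0.80, adjusted p = 0.0288, in old + AP-treated mice) were called as higher, each at a mean under 3 CPM. The call of Has3 was lost with limma-voom. For Has2 8 of 13 old mice lay below the young median, so that the value rested on a few high mice. Ezr, Rdx and Msn, which link podoplanin and CD44 to actin, were not called in any comparison. None of the 3 tested Iroquois genes was called.

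Of the 17 other osteocyte-expressed genes, 3 were called as lower in both old groups and none as higher. Hyou1, an endoplasmic reticulum chaperone, passed the p in both, at a log2 fold change of 0.36 in old + vehicle-treated (adjusted p = 0.000923, 12 of 13 mice above the young median) and 0.41 in old + AP-treated mice (adjusted p = 0.000206, 16 of 16 above), and stayed under the fold threshold. Gja1, which encodes connexin 43, the gap junction protein of the dendrites, had a mean of 492 CPM in young, 248.5 in old + vehicle-treated and 246 in old + AP-treated mice (log2 fold changes of -0.99 and -1.002, adjusted p = 0.00057 and 0.000329). In the vehicle group 12 of 13 mice lay below the lowest young mouse, and in the AP group 13 of 16. Mmp2, a matrix metalloproteinase of perilacunar remodelling, fell by 0.82 and by 1.01 (adjusted p = 0.00578 and 0.000645), and Ptprz1, a receptor tyrosine phosphatase, fell by 0.72 and by 0.78 (adjusted p = 0.0145 and 0.00663) on the log2 scale. The actin genes Capg, Dstn, Fscn1 and Pls3, the mechanosensor Piezo1, Tnfsf11 (RANKL) and Tnfrsf11b (osteoprotegerin) were not called with age, with log2 fold changes from -0.33 to 0.40. Gja1, Mmp2 and Ptprz1 are also expressed by osteoblasts, whose markers fell as given above. Their part in these values was not tested.

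**Figure D5:**
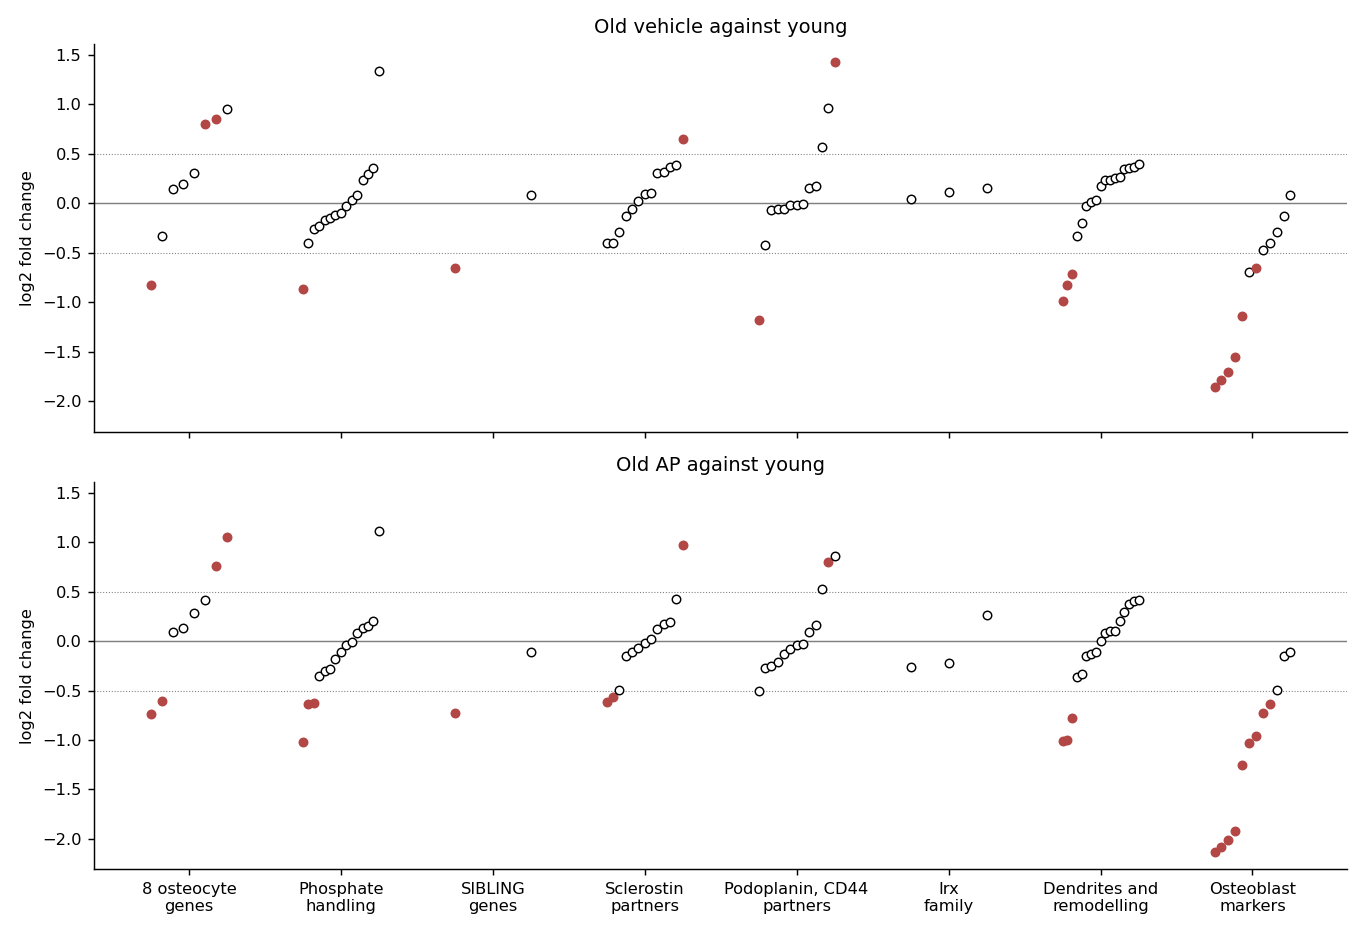
log2 fold change of every tested gene of the 8 members, the 6 fixed lists around them and the osteoblast markers, in old + vehicle-treated (top) and old + AP-treated mice (bottom) against young mice, with filled red points for called genes and dotted lines at 0.5 and -0.5. Called genes lie on both sides for the members, and only on the lower side for the phosphate, SIBLING, dendrite and osteoblast lists; Alpl, Ibsp, Spp1, Sp7 and Runx2 are drawn in 2 lists each.

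The genes whose level followed each member most closely were found by Pearson's r over the 41 mice after subtraction of the group means, among 15541 genes with a mean of at least 1 CPM. This describes the mice and carries no test, since all genes share the same libraries. For Sost these were 9130019P16Rik (r = 0.948), Mepe (0.945) and Prr15 (0.94). For Mepe they were Epcam (0.951), Tg (0.949) and Sost. For Dmp1 they were Dkk1 (0.949), Mepe and Tpbg. For Phex they were Ptprz1 (0.962), Sema5a (0.956) and Magi2 (0.952). Fgf23 had no companion as close, the highest r being 0.708 with Rasgrf2, followed by 6330403A02Rik (0.686) and Gm10687 (0.685).

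Following a member from mouse to mouse did not always go with the same difference with age. Of the genes closest to Sost, 9130019P16Rik was called as higher in old + AP-treated than in young mice (edgeR, log2 fold change 0.80, adjusted p = 0.0218). In old + vehicle-treated mice it was not called (0.49, adjusted p = 0.188). Epcam, which encodes an epithelial adhesion protein, was called as higher in both old groups, at 9.60 CPM in young, 20.6 in old + vehicle-treated and 20.5 in old + AP-treated mice (log2 fold changes of 1.10 and 1.09, adjusted p = 0.00233 and 0.00224). Tg, the gene of thyroglobulin, was not called (0.42 and 0.49, adjusted p = 0.209 and 0.116), nor was Prr15 (0.15 and -0.01, adjusted p = 0.695 and 0.99). For Phex, Ptprz1 and Magi2 were lower in both old groups (Magi2 -0.78 and -0.67, adjusted p = 0.00845 and 0.019), and Sema5a was not called (-0.22 and -0.23, adjusted p = 0.476 and 0.4).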

How the data were processed

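RNA-seq was available for 41 tibiae, and each mouse was 1 replicate. The groups came from the sample labels. Per the labels' processing notes, which name TopHat2 2.0.6, HTSeq and the GRCm38 (mm10) build, the authors mapped the reads, counted them per gene and deposited raw counts, with the gene coordinates and lengths used here. The annotation release and the strand setting are not given in the sources used here. No protein-coding gene of the table overlaps a member, while small noncoding genes or pseudogenes lie within Phex and Cd44. All 37 mitochondrial genes are listed at 0. Mice of the same group always differed, by at least 30.7 times the variance of counting error.

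Counts were normalized with edgeR 4.0.16 (TMM) in R 4.3.3, which gave CPM and, with the deposited gene length, RPKM. All 8 members were among the 19292 genes that passed edgeR's filter on low counts, and were tested in 1 quasi-likelihood fit of the 3 groups, without covariates, with p-values adjusted over all these genes. SE is the size of the log2 fold change divided by the root of its F statistic, and intervals are 2 SE wide on each side. The thresholds are those in the methods of the study, whose code loads these counts into DESeq2, here an alternative. Alternatives were DESeq2 1.42.0, limma-voom (limma 3.58.1), median-ratio size factors, no filter, fits of 2 groups, no fold threshold, marker scores as covariates, other scales for the correlations, and each mouse left out in turn. Leaving out mice 18 and 19 together and the osteoblast score were alternatives added with the data known. Correlations used 100000 permutations of log2 CPM (prior count 2) in Python 3.11.15 with NumPy 2.4.6.

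The members, the lists of related genes and the marker lists were chosen with earlier results of these data known. The text names all members, Cdkn2a, the up to 3 called genes of largest change per list and comparison, the called genes of a marker list that moves with a result, the 3 genes most like each member, and genes of the lists chosen after their values were seen (Fam20c, Galnt3, Kl, Spp1, Dspp, Lrp6, Dkk1, Ezr, Rdx, Msn, Capg, Dstn, Fscn1, Pls3, Piezo1, Tnfsf11, Tnfrsf11b, Furin, Mef2d, Panx1, Hyou1 and Cd9, none of them called). In simulated counts for old + vehicle-treated against young mice, edgeR recovered 87 of 100 genes changed by 1 and 100 of 100 changed by 2 on the log2 scale, and called 3 of 18923 unchanged genes. These counts were drawn for each gene on its own, without differences in tissue share, a batch or mice that stand apart. They do not give the error rate of the calls in the real data. The labels and the study's methods differ on the age of the young mice, and the labels' range is given here. Promoter sequences are from RefSeq (GRCm38.p6), with entries for 7 of 8 members.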

Additional observations from a re-analysis of the deposited data

How the results depend on the processing

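Of the 168 fold changes of the members under alternatives fixed at the start, other than those that left out 1 mouse, 157 kept their direction and their side of the threshold, 8 fell below it and 3 turned. With limma-voom the log2 fold change between the old groups was -0.050 for Phex, and against young mice old + AP-treated mice had -0.068 for Dmp1 and -0.12 for Irx5, none of them called in any of these fits, and 2 members were called in place of 4. Without a filter on low counts 2 members were called in that comparison, and without a fold threshold 14 listed genes in place of 8 were called between young and old + vehicle-treated mice. With the osteoblast score, Pdpn was at 0.16 in old + vehicle-treated against young mice, Dmp1 at 0.018 between the old groups, and Phex at 0.053 and Pdpn at 0.068 in old + AP-treated against young mice. Without mice 18 and 19 Mepe was at 0.076 and Dmp1 at 0.053 between the old groups. With each mouse left out in turn, Phex ranged from -0.052 to 0.15 between the old groups, and against young mice, in old + AP-treated mice, Dmp1 ranged from -0.013 to 0.16, Irx5 from -0.0017 to 0.20 and the members called from 2 to 4. The lowest of these 3 fold changes was each time the fit without mouse 12. The cause of these moves was not tested. The number of correlated pairs was 20 to 23 on the other scales. Depth limits Fgf23, with 19 counts in 1 mouse. No paired analysis was possible because the mice of different groups share no replicate or litter number in the labels.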

Other observations

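The closest companions of Irx5, Pdpn and Cd44 were the following, of which Prr15 was shared between Irx5 and Sost. Prr15 also followed Mepe (r = 0.929) and Dmp1 (0.92), and Magi1 followed Dmp1 (0.913). Over the 41 mice, with group means subtracted, Irx5 followed Wnt5b (r = 0.959), Magi1 (0.958) and Prr15 (0.945), none of which was called with age. Wnt5b was at 23.1 CPM in young, 22.3 in old + vehicle-treated and 19.4 in old + AP-treated mice. Pdpn followed Wnt5a (0.852), Pls3 (0.845) and Pdgfrl (0.843). Of these Pdgfrl fell in both old groups, from 21.6 CPM in young to 11.7 in old + vehicle-treated and 10.7 in old + AP-treated mice (edgeR, log2 fold changes of -0.88 and -1.01, adjusted p = 0.0058 and 0.00125). Cd44 followed Acap2 (0.876), Zdhhc20 (0.854) and Spty2d1 (0.845). Zdhhc20 lay below the young median in 13 of 13 old + vehicle-treated mice, with a log2 fold change of -0.29 (edgeR, adjusted p = 0.00616) that is under the threshold.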
